A study of Mus musculus with 25 samples.

Results

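Prostaglandins are short-lived lipid signals that cells make from arachidonic acid. The 10 genes described here are a set of genes of prostaglandin synthesis, reception and breakdown: Pla2g4a, Ptgs1, Ptgs2, Ptges, Ptges2, Ptges3, Ptgis, Ptger4, Ptgfr and Hpgd. Of the 18194 genes that have a probe set named for them alone on these arrays, 8 were among these 10, with 17 probe sets. Ptgs1 had no such probe set, and Ptges3 was found only on 2 probe sets that it shares with another symbol, so neither was measured here. Hpgd did not pass the filter on dim genes, which left 7 genes in the tests.

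The RNA came from cultures labelled as 3T3-L1 adipocytes, the fat-cell form of a mouse fibroblast line that can be differentiated in the dish. The cultures received LA, the control, or CLA, the treatment, for 4, 8, 12 or 24 h. The LA groups held 3 arrays each, except for 4 at 12 h. The CLA groups held 2 at 4 h, 4 at 12 h and 3 at the other times. This gives 25 arrays, and the labels call the arrays of a group biological replicates. The labels do not spell out LA and CLA, though in adipocyte work LA is commonly linoleic acid and CLA its conjugated isomers; neither dose nor isomer is stated. All groups are the same cell line, so the arrays describe cultures of a line and not tissue.

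Synthesis begins when a phospholipase A2, of which cytosolic phospholipase A2 (Pla2g4a) is the form selective for arachidonic acid, frees the fatty acid from membranes. A cyclooxygenase, constitutive (Ptgs1) or inducible (Ptgs2), turns it into prostaglandin H2, and terminal synthases turn that into prostaglandin E2 (Ptges, Ptges2 and Ptges3) or prostacyclin (Ptgis). Released prostaglandins act on receptors such as EP4 (Ptger4) and FP (Ptgfr), and 15-hydroxyprostaglandin dehydrogenase (Hpgd) inactivates them. In fat cells prostaglandin E2 is known to restrain lipolysis, prostacyclin to favour and prostaglandin F2alpha to restrain the formation of adipocytes.

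The promoters of the 2 genes that passed a test, Ptgs2 and Ptges2, are shown because the results turn on these genes. Both are RefSeq sequences on GRCm38.p6, from 250 bases before the annotated start to 50 after it, printed in the direction of transcription. Capitals mark the motif matches, and were set after the sequences had been searched. The Ptgs2 window is chr1:150099781-150100080 on the plus strand and the Ptges2 window is chr2:32395640-32395939 on the plus strand.
Ptgs2: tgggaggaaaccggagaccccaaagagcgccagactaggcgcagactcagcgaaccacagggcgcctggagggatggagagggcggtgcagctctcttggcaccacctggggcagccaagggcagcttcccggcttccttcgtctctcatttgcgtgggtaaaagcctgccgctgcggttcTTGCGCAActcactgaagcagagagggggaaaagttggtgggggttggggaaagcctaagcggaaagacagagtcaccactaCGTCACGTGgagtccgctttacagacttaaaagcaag
Ptges2: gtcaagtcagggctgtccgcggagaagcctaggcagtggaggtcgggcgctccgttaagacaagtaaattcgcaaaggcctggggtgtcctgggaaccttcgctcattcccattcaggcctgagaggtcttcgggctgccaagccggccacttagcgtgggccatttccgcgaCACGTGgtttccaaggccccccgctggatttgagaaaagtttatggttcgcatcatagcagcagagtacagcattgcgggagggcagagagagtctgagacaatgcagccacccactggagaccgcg

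In the Ptgs2 window the first run of capitals, bases 182 to 189, matches the C/EBP motif TTNNGCAA. The second run holds 2 overlapping matches, the core of the cAMP response element (TGACG, on the other strand, bases 264 to 268) and the E-box CACGTG (bases 267 to 272). The Ptges2 window holds an E-box at bases 174 to 179. Among 32851 RefSeq windows of the same length, 10.8% held the C/EBP motif, 20.8% the core TGACG and 7.15% the E-box. The full cAMP response element TGACGTCA (1.79% of windows), the ATF4 composite TGATGNAA (3.97%), AP-1 TGANTCA (7.81%), NRF2 TGACNNNGC (12.4%), an NF-kB-like motif, GGGA and CC with any 4 bases between (20.7%), and TATAAA (13.6%) were searched on both strands too, with no match in either window. Windows were given for 9 of the 10 genes. A match describes the letters only. Ptgs2 and Pla2g4a are neighbours on chromosome 1, with 0 protein-coding genes between them in the RefSeq annotation.

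Levels below are intensities, quantile normalised between arrays on the linear scale, with the array median at 10.2. Differences are CLA minus LA of log2(intensity + 16), with their standard errors, and the offset makes them smaller than the ratio of the intensities for dim genes. They come from limma fitted to 14456 genes, with Benjamini-Hochberg adjustment over all of them. Clustering sorted the arrays into 5 sets, A to E, that the labels do not name, and the reported fit has array set as a term. The sets were derived from the same values, and they accounted for 97.4% of the first principal component against 2.37% for treatment. "Rose" and "fell" mean an adjusted p under 0.05 in that array-set fit. The fit to the labelled groups alone called none of the 7 genes at any time, so every call below depends on a term for differences between arrays. That fit called 0, 0.0346%, 0.0277% and 0.0208% of all genes at the 4 times in order. At an unadjusted p under 0.05 it had 1 of the 7 genes at each time, against 3.96%, 6.80%, 4.41% and 3.57% of all genes. With replicate number as the block, the share of all genes called at an adjusted p under 0.05 was 0, 0.415%, 0.380% and 0.291%. With the block within each time it was 0, 0.491%, 0.249% and 0.463%.

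In the array-set fit, 0 of the 7 genes passed at 4 h, 1 at 8 h, 1 at 12 h and 2 at 24 h. Of all genes tested, 0.0277%, 3.02%, 5.90% and 5.55% were called at these times. Ptgs2 rose at 8, 12 and 24 h and Ptges2 fell at 24 h. At an unadjusted p under 0.05 there were 1 of the 7 at 4 h (Ptgfr, lower), 1 at 8 h (Ptgs2), 4 at 12 h (Ptgs2, Ptges and Pla2g4a higher, Ptgfr lower) and 2 at 24 h (Ptgs2 and Ptges2), against 11.5%, 16.3%, 19.9% and 18.2% of all genes. The groups did not overlap for 1 of the 7 at each time, against 11.1%, 12.2%, 2.41% and 12.1% of all genes. The median difference of the 7 genes was -0.13 at 4 h, 0.24 at 8 h, 0.27 at 12 h and 0 at 24 h, while that of all genes was -0.02 at 8 h and 0 at the other times.

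**Figure D1:**
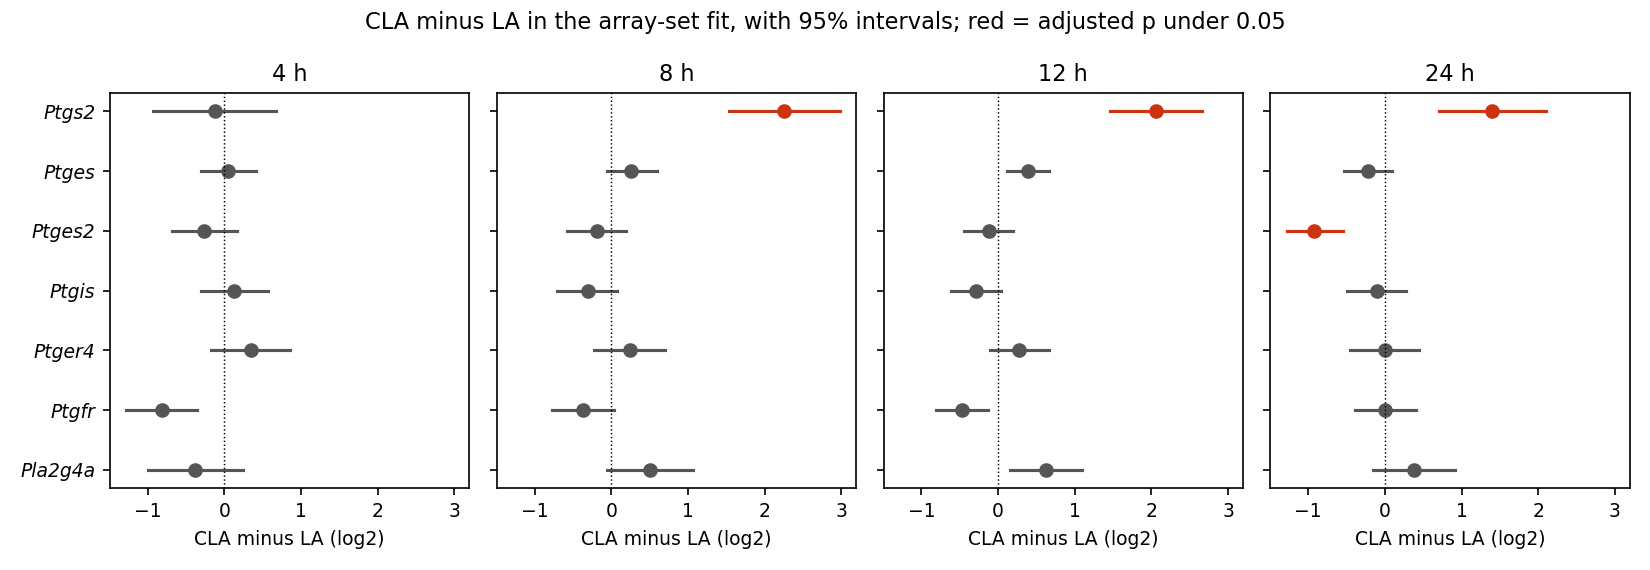
Difference between CLA and LA on the log2(intensity + 16) scale (x axis) for the 7 tested genes (rows) at 4, 8, 12 and 24 h (panels), from the array-set fit; points are estimates and lines 95% intervals, red where the adjusted p was under 0.05. Ptgs2 stands at 2.25, 2.06 and 1.40 at 8, 12 and 24 h, and Ptges2 at -0.92 at 24 h.

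With the probe set of the higher mean over all 25 arrays Ptgs2, the inducible cyclooxygenase, was near the floor in every LA array. It was above the array median in every CLA array from 8 h on, at 14.7 to 134. At 4 h its probe set 1417262_at read 3.90, 2.89 and 1.28 in the LA arrays and 0 and 2.18 in the CLA arrays. At 8 h it read 2.86, 2.72 and 1.32 under LA and 63.2, 129 and 34.8 under CLA. The groups overlapped at 4 h and lay well apart at 8 h.

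At 12 h the LA arrays read 4.5, 3.58, 0 and 1.32 and the CLA arrays 112, 134, 33.0 and 19.5. At 24 h the LA arrays read 8.63, 4.83 and 1.11 and the CLA arrays 92.1, 32.8 and 14.7. Every CLA array lay above every LA array at both times, though the lowest CLA value at 24 h was less far above the highest LA value. All 13 LA arrays stood below the array median for this probe set, with a range of 0 to 8.63, and the gene passed the filter on dim genes through its CLA arrays alone. The choice of this probe set for the gene rests on the CLA arrays too. Its median was 2.86 under LA and 33.9 under CLA, against 3.01 and 17.6 for the second probe set, 1417263_at. Groups that did not overlap, with CLA higher, were found for 5.04% of all genes at 8 h, 1.26% at 12 h and 5.14% at 24 h.

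Ptgs2 rose by 2.25 ± 0.34 at 8 h (adjusted p = 0.00170, limma), by 2.06 ± 0.29 at 12 h (adjusted p = 0.000500) and by 1.40 ± 0.33 at 24 h (adjusted p = 0.0169). At 4 h the difference was -0.13 ± 0.38 (adjusted p = 0.938, limma). In the fit to the labelled groups alone the adjusted p was 0.128, 0.0731 and 0.795 at 8, 12 and 24 h, with unadjusted p of 0.000106, 4.05e-05 and 0.00624. Replicate numbers paired the arrays at these 3 times, though weakly for replicate 3 at 8 h (correlation of deviations 0.13). With replicate number as the block in place of array set the adjusted p was 0.0119, 0.00749 and 0.105 (limma). The calls at 8 and 12 h held in that fit and that at 24 h was lost. The block joins arrays of the same number over all times, 4 h included, where the numbers do not pair them.

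In array sets with arrays of both treatments, Ptgs2 was higher under CLA in 2 of 2 sets at 8 h (differences 2.07 and 2.95), in 4 of 4 at 12 h (1.03 to 2.94) and in 3 of 3 at 24 h (0.84 to 2.13), each from 1 array against 1. Array set accounted for 15.9% of the variance of Ptgs2 and for 67.3% to 90.6% of that of the other 6 genes. Group accounted for 78.7% of that of Ptgs2 and for 8.25% to 42.5% of that of the others. The low share does not show Ptgs2 to be free of the sets, since its LA arrays lie near the floor. At 12 h its CLA arrays read 112 in set E, 134 in B, 33.0 in D and 19.5 in C. The size of the rise depends on the offset: with 1 in place of 16 it was 4.47, 4.37 and 2.90 at 8, 12 and 24 h, and with 50 it was 1.24, 1.13 and 0.74. The call at 24 h was lost without LA replicate 1 (adjusted p = 0.0843, limma), LA replicate 2 (0.104) or CLA replicate 1 (0.0974). The arrays hold whole cultures, in which more cells with the transcript and more transcript per cell cannot be told apart.

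**Figure D2:**
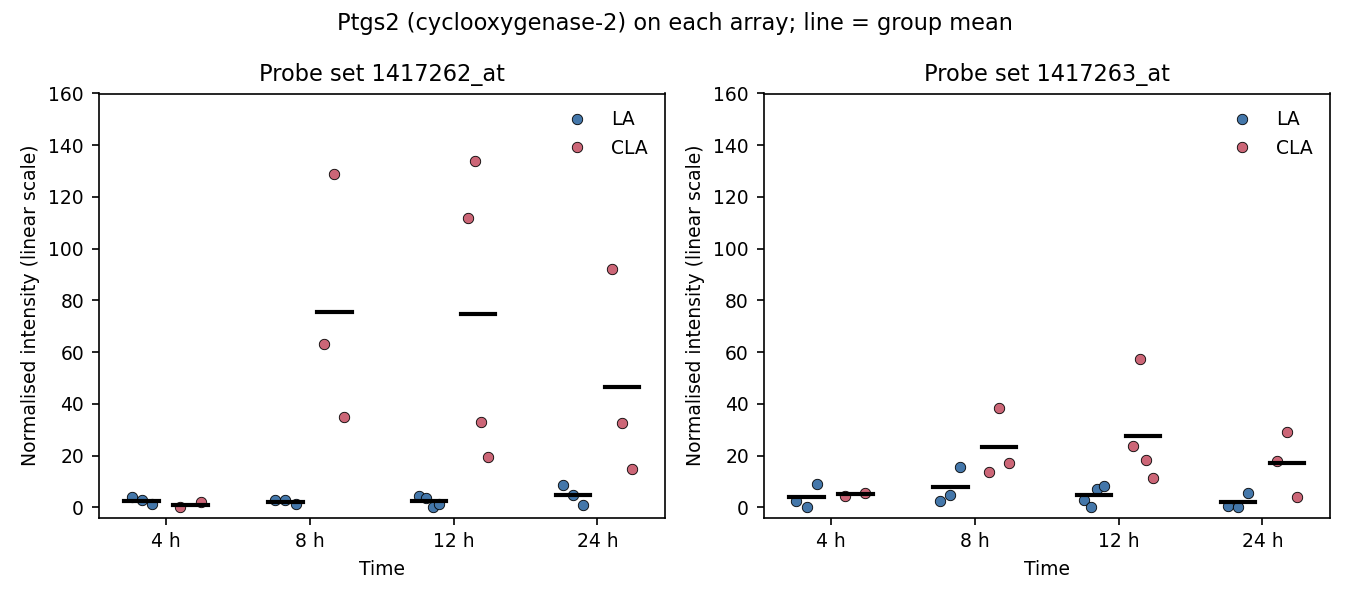
Normalised intensity (y axis, linear) of both Ptgs2 probe sets on each array at 4, 8, 12 and 24 h (x axis), LA in blue and CLA in red; each point is 1 array and each black line a group mean. With probe set 1417262_at the CLA arrays reach 134 and the LA arrays stay at or under 8.63, and with 1417263_at the groups overlap except at 12 h.

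The second Ptgs2 probe set, 1417263_at, had higher group means under CLA from 8 h on but passed no test of the limma fit. It read 2.57, 4.85 and 15.8 in the LA arrays and 13.9, 38.4 and 17.3 in the CLA arrays at 8 h, so the groups overlapped. At 12 h it read 3.01, 0, 7.14 and 8.45 under LA and 23.9, 57.3, 18.3 and 11.3 under CLA, with no overlap. A fit to all probe sets called 0.0185%, 1.16%, 3.00% and 2.79% of them at the 4 times in order. Its difference there was 0.80 ± 0.34 at 8 h (adjusted p = 0.307, limma), 1.0 ± 0.28 at 12 h (0.0615) and 0.81 ± 0.32 at 24 h (0.243). In the authors' deposited table the ratio of 1417262_at was 0.85 at 4 h, 12.53 at 8 h, 11.84 at 12 h and 6.07 at 24 h, with p of 0.886, 5e-05, 0.00019 and 0.00813. The authors' deposited table put the ratio of the second probe set at 1.37, 3.57, 3.59 and 3.55, with p of 0.68, 0.0144, 0.0466 and 0.0533. At 24 h it was lower under CLA in 1 of 3 array sets, by a difference of -0.1, and higher in the other 2. No source names the direction of these ratios; CLA over LA was inferred because their logs correlated positively with the array differences over 45101 probe sets at all 4 times.

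Whether the rise of Ptgs2 differed between times was tested directly. The effect at 8 h exceeded that at 4 h by 2.38 ± 0.52, with an unadjusted p of 0.000219 and an adjusted p of 0.226 in limma. The limma F-test over the 4 times gave an unadjusted p of 0.000790 and an adjusted p of 0.168. The first of these tests called 0 of 14456 genes (1604 at an unadjusted p under 0.05) and the F-test 3 (1489 unadjusted). The effect at 24 h was lower than that at 12 h by a difference of -0.66 ± 0.44 (adjusted p = 1.0, limma). A miss of the adjusted threshold in tests that call so few genes does not show that the effect was alike at all times. Under LA none of the 7 genes passed a test of change over time (limma F-test, adjusted p 0.550 to 0.998, 0 of 7 at an unadjusted p under 0.05).

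Ptges2, known as membrane-associated prostaglandin E synthase 2, was lower under CLA at 24 h. At that time it read 150, 284 and 245 in the LA arrays and 107, 168 and 69.7 in the CLA arrays. The groups overlapped, since the CLA array of replicate 2 lay above the LA array of replicate 1. Ptges2 fell by 0.92 ± 0.18 on the log2 scale (adjusted p = 0.00421, limma) and was lower in 3 of 3 array sets, with differences from -1.61 to -0.44. With replicate number as the block the adjusted p was 0.532, without either term 1.0, and with the values as deposited 0.0599.

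At 12 h Ptges2 read 134, 326, 172 and 523 under LA and 121, 265, 159 and 530 under CLA, a difference of -0.12 ± 0.15 (adjusted p = 0.742, limma). Replicates of a group differed far more than the treatments did, and same-numbered arrays lay close together. The 5 arrays of set C, which are dim before normalisation, held the 5 highest values of all, 508 to 773. The authors' deposited table gave a ratio of 0.57 at 24 h with p = 0.163.

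Ptges, the inducible microsomal prostaglandin E synthase that is commonly coupled to Ptgs2, was well expressed under both treatments. Its brightest probe set, 1449450_at, read 75 to 402 in the LA arrays (median 263) and 89.7 to 438 in the CLA arrays (median 324). At 12 h it read 89.2, 337, 300 and 263 under LA and 122, 438, 367 and 385 under CLA. The groups overlapped, and CLA was higher in 4 of 4 array sets, by 0.28 to 0.52.

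The difference at 12 h was 0.39 ± 0.13 (95% interval 0.12 to 0.66, adjusted p = 0.0844, limma), which did not pass. It passed with an offset of 50 (0.34, adjusted p = 0.0311, limma), and without LA 8 h replicate 1 (0.0475) or LA 8 h replicate 3 (0.0385). These were 1 of 13 other fits and 2 of 25 that each left out 1 array, and it passed in no other. With replicate number as the block the adjusted p was 0.668, and with the block within each time 0.606 (limma). The fit to the labelled groups alone gave an unadjusted p of 0.472. At 8 h the difference was 0.26 ± 0.15 (adjusted p = 0.430, limma) and at 24 h -0.22 ± 0.15 (0.494). The other 2 probe sets of Ptges gave 0.37 and 0.68 at 8 h and 0.31 and 0.38 at 12 h, none of which passed. For 1439747_at CLA was higher in 3 of 4 array sets at 12 h, with a lowest difference of -0.09.

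Ptgis, prostacyclin synthase, showed no difference that passed. It read 130 to 521 in the LA arrays (median 322) and 113 to 414 in the CLA arrays (median 315). Its differences at 4, 8, 12 and 24 h were 0.13, -0.31, -0.29 and -0.11 (adjusted p 0.324 to 0.867, limma). The 95% interval was -0.71 to 0.08 at 8 h and -0.62 to 0.04 at 12 h. The value at 12 h rests largely on set C, at -0.83 against -0.15 to -0.05 in the other 3 sets, and it was -0.10 without CLA 12 h replicate 4. Arrays of sets A and E were low, at 113 to 176, under both treatments.

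Pla2g4a, the enzyme that frees arachidonic acid, was somewhat brighter under CLA from 8 h on in each same-numbered pair, and did not pass the test. At 8 h it read 57.2, 35.2 and 18.4 under LA and 111, 53.2 and 64.4 under CLA. At 12 h it read 80.9, 29.6, 68.4 and 9.63 under LA and 97.1, 55.1, 82.0 and 51.9 under CLA. At 24 h it read 83.6, 28.5 and 65.3 under LA and 88.2, 62.9 and 80.2 under CLA. The groups overlapped at each time, and within array sets CLA was higher in 2 of 2, 4 of 4 and 3 of 3.

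The differences of Pla2g4a were 0.50 ± 0.27 at 8 h (adjusted p = 0.369, limma), 0.62 ± 0.22 at 12 h (0.113) and 0.38 ± 0.26 at 24 h (0.503). The 95% interval at 12 h ran from 0.16 to 1.09. Within array sets it was 1.41 in set C and 0.64, 0.22 and 0.21 in the others, and without LA 12 h replicate 4 the difference was 0.41. At 4 h the difference was -0.38 ± 0.30 (0.669). In the authors' deposited table the ratio was 1.72, 1.19 and 1.53 at 8, 12 and 24 h, with p of 0.0987, 0.602 and 0.137.

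**Figure D3:**
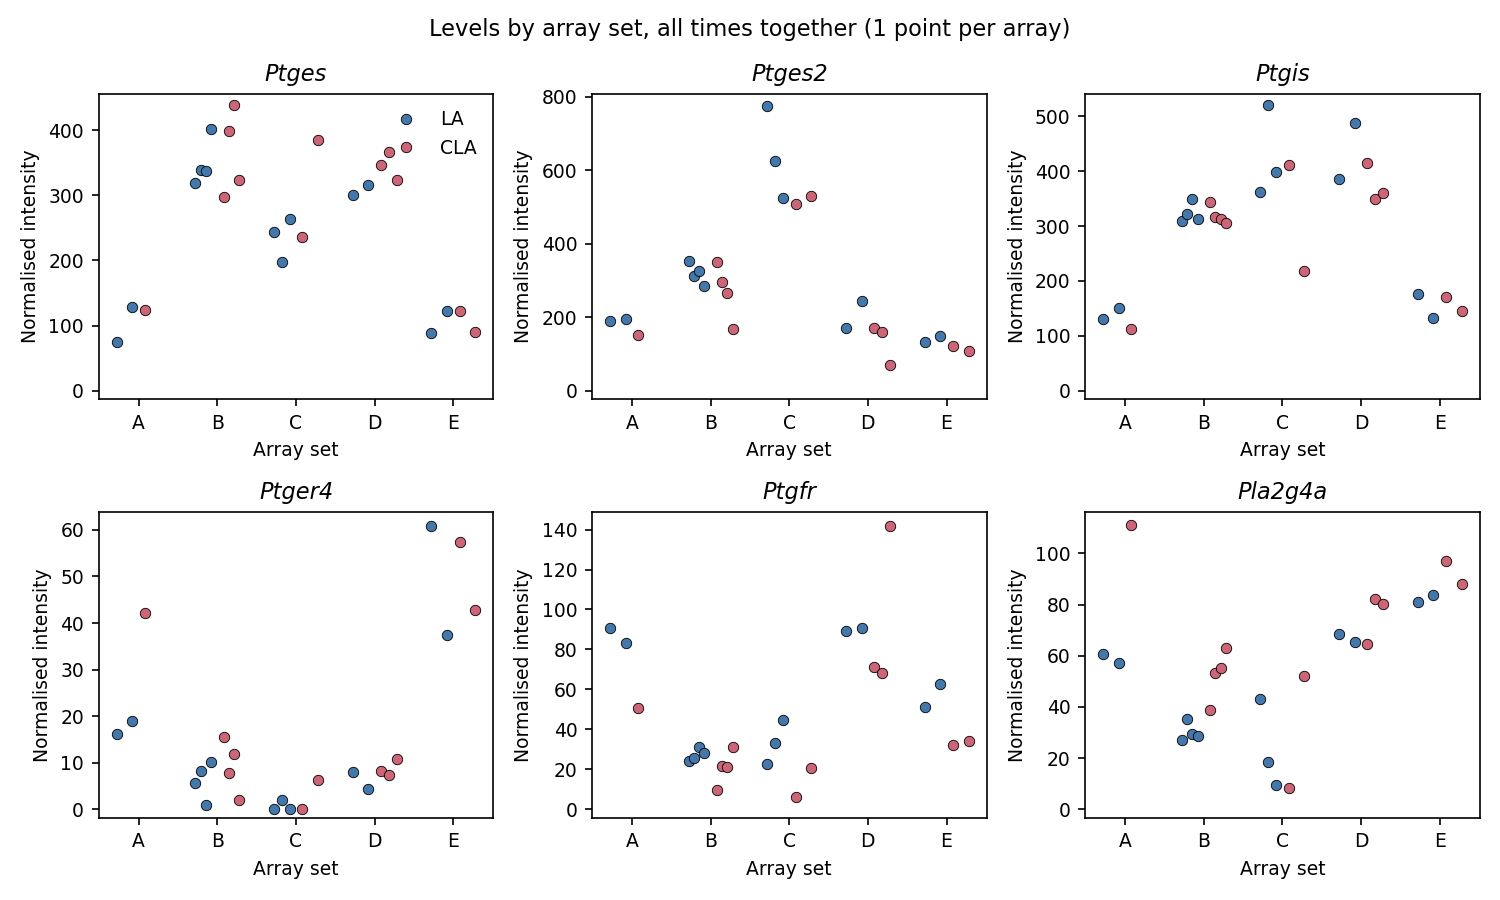
Normalised intensity (y axis, linear) of 6 genes by array set A to E (x axis), with all times together, LA in blue and CLA in red, 1 point per array. Ptger4 is highest in set E (37.4 to 60.8), Ptges2 in set C (508 to 773), and Ptges and Ptgis are low in sets A and E under both treatments.

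Ptgfr, the receptor for prostaglandin F2alpha, was lower under CLA at 4 h without passing. Its brightest probe set, 1420349_at, read 90.7, 24.3 and 22.6 in the LA arrays and 6.40 and 9.61 in the CLA arrays at 4 h. The groups did not overlap, which held with CLA lower for 5.42% of all genes. The difference was -0.82 ± 0.22 (adjusted p = 0.152, limma), and it was negative in both array sets, -0.78 and -0.65. The groups did not overlap for 2 of its other 4 probe sets either, at -0.64 ± 0.21 (adjusted p = 0.272, limma) and -0.34 ± 0.24 (0.627).

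At 12 h Ptgfr read 51.4, 31.4, 89.0 and 44.7 under LA and 32.3, 21.2, 68.1 and 20.5 under CLA. Each CLA array lay below the LA array of its own number, the groups overlapped, and the difference of -0.47 ± 0.16 did not pass (adjusted p = 0.101, limma). At 24 h the difference was 0 ± 0.19 (95% interval -0.39 to 0.40), with 1 CLA array at 142, the highest of all 25. Another probe set, 1440777_x_at, had every CLA array below every LA array at 24 h, at -0.47 ± 0.21 (adjusted p = 0.329, limma). Groups that did not overlap, in either direction, were found for 12.1% of all genes at that time. The remaining Ptgfr probe sets gave 0.05, 0.08 and -0.12.

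Ptger4, the EP4 receptor for prostaglandin E2, was dim, at 0 to 60.8 under LA (median 7.94) and 0 to 57.5 under CLA (median 9.55). Its differences were 0.34, 0.24, 0.27 and 0 at 4, 8, 12 and 24 h (adjusted p 0.464 to 1.0, limma). Its level followed the array set: the 4 arrays of set E read 37.4 to 60.8 and the 5 of set C read 0 to 6.22. Hpgd, which breaks prostaglandins down, read 0 to 14.4 in the LA arrays and 0 to 9.26 in the CLA arrays with its brighter probe set and did not pass the filter. In a fit without the filter its differences were 0, -0.19, 0.16 and 0.06 (adjusted p 0.784 to 1.0, limma).

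Of 43 other prostanoid genes, chosen with earlier results of these data known, 33 were tested. In the array-set fit 0 passed at 4 h. At 8 h 2 rose and 0 fell, at 12 h 4 rose and 2 fell, while 24 h had 1 that rose and 6 that fell. Their median difference was 0.05, -0.02, -0.08 and -0.10 at these times. Of all genes tested, 1.95%, 3.05% and 1.51% rose and 1.07%, 2.85% and 4.05% fell at 8, 12 and 24 h. None of these genes passed in the fit to the labelled groups alone, and none with replicate number as the block.

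Cbr3, a carbonyl reductase of the family that reduces prostaglandins among other carbonyls, rose by 1.25 ± 0.25 at 8 h (adjusted p = 0.00920, limma), 1.24 ± 0.21 at 12 h (0.00195) and 0.84 ± 0.24 at 24 h (0.0466). At 12 h it read 487, 815, 578 and 1755 under LA and 1289, 2184, 1427 and 3285 under CLA. Each CLA array was brighter than the LA array of its own number, while the groups overlapped. At 24 h it read 482, 968 and 873 under LA and 1751, 1621 and 842 under CLA, so replicate 3 was slightly lower under CLA. The call at 24 h was lost with an offset of 1 (adjusted p = 0.0816, limma), 75th percentile scaling (0.182) or the values as deposited (0.258). It held with an offset of 50 (0.0168). With replicate number as the block the adjusted p of Cbr3 was 0.387, 0.151 and 0.634 at 8, 12 and 24 h.

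Ptgir, the prostacyclin receptor, rose by 1.03 ± 0.24 at 8 h (adjusted p = 0.0253, limma) and 0.97 ± 0.20 at 12 h (0.00676). It was dim, and size and call depend on the offset. With an offset of 1 the differences were 2.59 and 2.09 and neither passed (adjusted p = 0.0914 and 0.0677, limma). With 50 they were 0.52 and 0.48 and both passed (0.0159 and 0.00466). At 8 h it read 24.9, 0 and 4.12 under LA and 60.6, 17.3 and 22.9 under CLA. At 12 h it read 23.8, 6.28, 7.26 and 1.26 under LA and 34.4, 30.2, 19.4 and 48.5 under CLA. The highest LA array lay above the lowest CLA array, and with replicate number as the block the adjusted p was 0.131 at 8 h and 0.0937 at 12 h.

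Of the 6 genes of the list that fell at 24 h, 4 were named by the rule for named genes. Plaat3, an adipocyte phospholipase, fell by 1.01 ± 0.16 (adjusted p = 0.000859, limma) and Pla2g12a, a secreted phospholipase A2, fell by 0.98 ± 0.17 (0.00194). Cbr2, another carbonyl reductase, fell by 1.0 ± 0.16 (0.00105), and Ptgr2, a prostaglandin reductase that acts on keto-metabolites of prostaglandin E2, fell by 0.83 ± 0.16 (0.00493). Plaat3 read 1891, 1831 and 1160 under LA and 1200, 920 and 432 under CLA at 24 h, with 1 CLA array above the lowest LA array. With replicate number as the block the adjusted p of these 4 ranged up to 0.614 and was lowest for Ptgr2, at 0.156. The other 2 that fell at 24 h were Cbr1 and Prxl2b, and the other 2 that rose at 12 h were Akr1b8 and Abcc4. Cbr1, Prxl2b, Akr1b8 and Abcc4 were named outside the rule and after their values were seen.

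**Figure D4:**
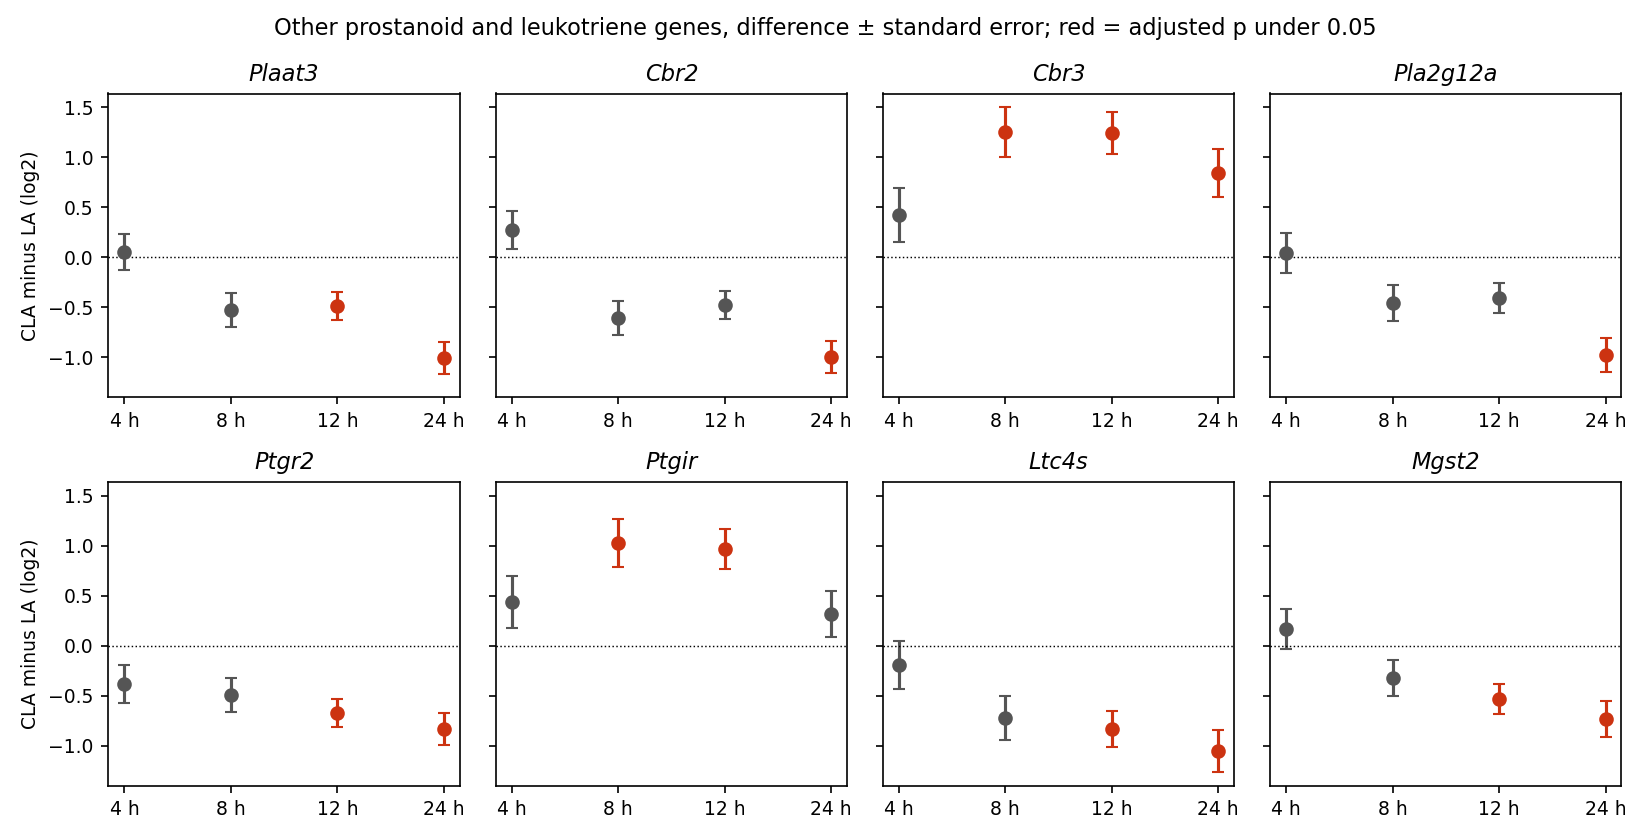
Difference between CLA and LA on the log2(intensity + 16) scale (y axis) with its standard error at 4, 8, 12 and 24 h (x axis). The genes shown are Plaat3, Cbr2, Cbr3, Pla2g12a, Ptgr2, Ptgir, Ltc4s and Mgst2. Points are red where the adjusted p was under 0.05 in the array-set fit. Cbr3 and Ptgir lie above 0 at 8 and 12 h, and the other 6 lie below 0 at 24 h.

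Of 16 leukotriene and lipoxygenase genes 10 were tested, and 0 passed at 4 and 8 h, while 2 fell at 12 h and 2 at 24 h. Of all genes tested, 2.85% fell at 12 h and 4.05% at 24 h. The 2 genes of the list that fell were enzymes that can join glutathione to leukotriene A4. Ltc4s, leukotriene C4 synthase, fell by 0.83 ± 0.18 at 12 h (adjusted p = 0.0104, limma) and 1.05 ± 0.21 at 24 h (0.00529). At 24 h it read 274, 308 and 279 under LA and 142, 107 and 146 under CLA, with no overlap. At that time 12.1% of all genes had groups that did not overlap, in either direction. Mgst2, microsomal glutathione S-transferase 2, fell by 0.53 ± 0.15 at 12 h (adjusted p = 0.05, just under the threshold before rounding) and 0.73 ± 0.18 at 24 h (0.0196). Neither passed in the fit to the labelled groups alone or with replicate number as the block.

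Among 235 genes with a spread of at least 0.5 over the 8 group means, those most like Ptgs2 by Pearson correlation of these means, adjusted for array set, were Tnfrsf12a (0.984), Egr3 (0.979), Calcrl (0.975), Sprr1a (0.973) and Dusp5 (0.972). Their differences at 8 h were 1.98, 1.55, 1.0, 2.58 and 3.12. Those most like Ptges2, among 236 genes, were Tmem120a (0.937), Gpt (0.921), Adig (0.918), Adtrp (0.915) and Cidec (0.909), with differences at 24 h of -1.48, -2.11, -2.49, -2.29 and -2.13. The means share arrays, and the correlations describe likeness over 8 points only.

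The cells carried adipocyte markers: all 8 adipocyte markers on the arrays were above the array median on all 25, Fabp4 at a mean of 8594 and Adipoq at 7044. Their summed level ran from 30081 to 43032 in the LA arrays and from 17439 to 40284 in the CLA arrays. In the array-set fit 1 of 8 fell at 8 h, 4 at 12 h and 5 at 24 h, against 1.07%, 2.85% and 4.05% of all genes. Of the 8 macrophage and leukocyte markers, Cd14 rose at 8, 12 and 24 h and Cd68 at 24 h, in the same fit. Of all genes tested, 1.95%, 3.05% and 1.51% rose at these times. Csf1r (mean 126), Cd14 (70.4) and Adgre1 (45.0) were above the array median on all 25 arrays, while Cd68 (16.5), Lyz2 (10.3), Mrc1 (8.94), Ptprc (3.02) and Itgam (2.91) were so on 15, 11, 7, 1 and 1. The summed level of these 8 was 123 to 502 under LA and 166 to 483 under CLA. The fit to the labelled groups alone called 0 markers of any list at any time. Of the 8 fibroblast and preadipocyte markers on the arrays 0 of 7 tested passed (0 to 3 at an unadjusted p under 0.05), with sums of 6262 to 18764 and 6871 to 20732. Of 5 endothelial markers, 1 was tested and did not pass, Pecam1 was at 0 on all arrays, and the sums were 6.43 to 54.8 and 4.86 to 32.9. The part of these changes in the differences above was not tested. The actin 3′ to 5′ ratio, which rises with degraded RNA, stood at 8.11 in the first LA array of 4 h, at 5.67 in the first of 12 h and at most at 3.32 in the rest. Mean array intensities ran from 72.62 to 149.2 before normalisation.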

How the data were processed

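Biotin-labelled cRNA of 25 cultures was hybridised to 1-colour arrays, per the labels' protocols. The deposited values are linear intensities of 45101 probe sets. These show a subtracted background, with 21.6% at or below 0, and no scaling between arrays. How probes were summarised is not given in the sources used here. In addition, the authors also deposited a ratio, an absolute fold change, a log10 ratio, a score of its error and a p-value per probe set and time, made with Rosetta Resolver per the file names, with the arrays of a group combined.

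Probe sets were named through the platform annotation (34958 with 1 symbol, 932 with several, 9211 with none). Intensities were quantile normalised, floored at 0, and turned into log2(intensity + 16). A gene is its probe set with the highest mean, kept if above the array median on at least 2 arrays, which left 14456 of 18194 genes. limma 3.58.1 in R 4.3.3 (lmFit, eBayes) fitted 8 group means and 5 array sets, with Benjamini-Hochberg adjustment and a two-sided threshold of 0.05. The sets came from complete-linkage clustering of the same values; Ward linkage gave the same sets, average linkage did not. The method was tested on simulated data with the array sets held fixed. That test cannot show how deriving the sets from the same values affects the p-values. Besides this fit, 13 others were run (11 planned, 2 chosen after seeing the data) and 25 that each left out 1 array.

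The genes, lists, array-set design and rule for named genes were chosen with earlier results of these data known. The rule named the 10 genes, up to 6 called genes per list by smallest p, and the 5 genes most like Ptgs2 and Ptges2. Correlations of deviations between same-numbered arrays were 0.13 to 0.56 at 8 h, 0.39 to 0.81 at 12 h and 0.59 to 0.65 at 24 h. By a threshold of 0.1 for every pair, the numbers pair the arrays at these times. The pair of replicate 3 at 8 h, at 0.13, passed it narrowly, and its LA array is in set C and its CLA array in set D. At 4 h the correlations were -0.40 and 0.51, and the numbers do not pair the arrays. P-values of the reported fit measure the spread between arrays that is left after the array-set term, and the sets came from the same values. The median standard error of all genes at 12 h was 0.16 with array sets and 0.28 without. Whether this makes the p-values too small was not tested. The number of arrays limits the precision. No 2 arrays were identical.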

Additional observations from a re-analysis of the deposited data

Results flagged for a closer look

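Of 34 groups of 4 arrays examined, 4 had 1 array far from the others, where chance alone flags about 1 in 20. Hpgd probe set 1419906_at read 4.85 in CLA 12 h replicate 2 and 0 in the other 3 arrays, all near the floor. Ptges read 79.2 in LA 12 h replicate 1 with probe set 1439747_at (182 to 208 in the others) and 122 in CLA 12 h replicate 1 with 1449450_at (367 to 438 in the others). Ptgis read 176 in LA 12 h replicate 1 (350 to 399 in the others). The last 3 values come from 2 arrays, both of set E, and LA 12 h replicate 1 also had a raised actin 3′ to 5′ ratio of 5.67; its part in these values was not tested.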

How the results depend on the processing

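The 4 calls (Ptgs2 at 8, 12 and 24 h, Ptges2 at 24 h) were recomputed under 13 alternatives, which gave 52 values, 43 past the threshold, 9 lost and 0 of the other sign. 4 of the 9 losses came without array sets, 4 with a replicate block and 1 with the values as deposited. Only the fits without array sets and with a replicate block dropped the array-set term. The other alternatives kept it, so the total of 43 cannot show how far the calls hold without that term. With the replicate block within each time, chosen after seeing the data, adjusted p was 0.0295, 0.0206 and 0.133 for Ptgs2 at 8, 12 and 24 h and 0.342 for Ptges2 at 24 h. Leaving out each array in turn lost 3 of 100 values, all of Ptgs2 at 24 h (1.07 to 1.62), and Ptges2 at 24 h ran from -1.15 to -0.68. These fits also kept the array sets as first derived, so they do not test that term either.

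The count of genes called moved with the term for arrays, and at 4 h most with single arrays. Without array sets it was 0, 5, 4 and 3 at 4, 8, 12 and 24 h, against 4, 436, 853 and 803 with them. With a replicate block it was 0, 60, 55 and 42, and with the block within each time 0, 71, 36 and 67. With an offset of 1 it was 2 at 4 h and 254 at 8 h; with 50 it was 15, 737 and, at 24 h, 1260. With 75th percentile scaling it was 13 at 4 h, with the values as deposited 11 at 4 h, 318 at 12 h and 331 at 24 h, with array set as a random block 28 at 4 h and 533 at 24 h, and without the set of dim arrays 1, 284 and 347 at 4, 8 and 12 h. At 4 h it was 2 with no filter and 0 with the mean of probe sets or without the 2 arrays of high actin ratio. Leaving out single arrays gave 0 to 183 at 4 h (183 without CLA replicate 2, 145 without LA replicate 2), 86 to 473 at 8 h, 289 to 1077 at 12 h and 239 to 831 at 24 h. Scaling moved the share of calls that were higher under CLA: at 8 h it was 64.7%, and 91.8% with the values as deposited, where the median of all genes moved to 0.11; at 4 h it was 100%, and 84.6% with 75th percentile scaling; at 24 h it was 27.1%, and 13.2% with 75th percentile scaling.

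3 genes differed in effect between times, against 41 with an offset of 50, 39 with the values as deposited, 6 with 75th percentile scaling, 1 with every probe set fitted, 0 with no filter, the mean of probe sets, a replicate block, no array sets or no dim arrays, and 0 to 37 without single arrays. Change over time under LA was called for 0 genes (1547 at an unadjusted p under 0.05), 1 with the values as deposited, 5 with a random block and 0 to 63 without single arrays.

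Of 24 differences that did not pass, 29 of 912 values took the other sign and 3 passed, all of Ptges at 12 h. Those of the other sign were Ptges at 4 h without the 2 arrays of high actin ratio (-0.07), Ptges2 at 4 h without array sets (0.16), with a replicate block (0.23, within each time 0.66) and without dim arrays (0.01), Ptges2 at 8 h as deposited (0.02), Ptger4 at 4 h with a replicate block (-0.22, within each time -0.23) and at 24 h with an offset of 1 (-0.18), Ptgfr at 8 h without array sets or with either block (0.04) and at 24 h with 75th percentile scaling (0) or the mean of probe sets (-0.09), and Pla2g4a at 4 h without dim arrays (0.33). Without single arrays, values at 4 h ran from -0.35 to 0.10 for Ptgs2, -0.07 to 0.14 for Ptges, 0 to 0.68 for Ptger4 and -0.83 to 0.06 for Pla2g4a; Ptger4 ran from -0.05 to 0.35 at 8 h; and at 24 h Ptger4 ran from -0.19 to 0.18, Ptgfr from -0.25 to 0.24 and Ptgis from -0.28 to 0.04. The causes were not tested. Ptgs2 under LA and Hpgd lie near the floor, where intensities have little order, as does Ptger4 in set C.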
